A study of Mus musculus with 6 samples.

Results

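The Sox transcription factors described here are 10 genes, Sox2, Sox4, Sox5, Sox6, Sox8, Sox9, Sox11, Sox12, Sox13 and Sox21, taken by symbol from a table of 17582 genes in which 19 rows carry the name of a Sox gene or of Sry. They were measured by mRNA sequencing in mouse first mandibular molars at postnatal day 4. Of the 6 libraries, 3 came from C57BL/6 mice with K14-Cre and homozygous floxed Wnt10a, called knockout here, and 3 came from C57BL/6 littermates that were homozygous for the floxed allele and had no Cre. The keratin 14 promoter drives Cre in epithelium, so Wnt10a of the dental mesenchyme was not targeted. The mapped total to which levels were scaled was estimated at 17950000 to 18530000 reads per library. The labels do not say whether a library is 1 animal or a pool, and p-values therefore measure the spread between these samples.

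Sox proteins bind the minor groove of DNA through an HMG box related to that of SRY, bend it, and act together with partner factors. They fall into groups by the sequence of that box. Sox2 and Sox21 belong to SoxB, Sox4, Sox11 and Sox12 to SoxC, Sox5, Sox6 and Sox13 to SoxD, and Sox8 and Sox9 to SoxE. In mouse teeth, Sox2 marks epithelial progenitors, Sox9 is also made in dental epithelium, and loss of Sox21 disturbs enamel. Several Sox proteins bind beta-catenin or compete with TCF/LEF factors, which carry the canonical Wnt signal.

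A stretch near the start of the HMG box shows both what the 10 transcripts share and how the groups part. The stretches below are 48 bases that begin at a conserved motif, 4 codons into the box as taken here. They were read from the coding sequence in GENCODE release M21 (GRCm38, the assembly also called mm10), 5′ to 3′ on the coding strand, and each lies within 1 coding exon. Capitals mark the 25 positions at which all 10 members have the same base.
Sox2 (chr3:34650548-34650595, plus strand): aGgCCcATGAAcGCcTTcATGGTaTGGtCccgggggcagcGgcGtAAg
Sox21 (chr14:118235561-118235608, minus strand): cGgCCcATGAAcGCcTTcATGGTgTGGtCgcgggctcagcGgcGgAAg
Sox4 (chr13:28952794-28952841, minus strand): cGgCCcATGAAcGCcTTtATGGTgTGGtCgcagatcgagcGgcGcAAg
Sox11 (chr12:27342211-27342258, minus strand): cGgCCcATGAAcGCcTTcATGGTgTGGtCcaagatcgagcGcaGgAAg
Sox12 (chr2:152397528-152397575, minus strand): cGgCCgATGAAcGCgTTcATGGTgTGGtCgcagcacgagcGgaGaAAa
Sox5 (chr6:143841226-143841273, minus strand): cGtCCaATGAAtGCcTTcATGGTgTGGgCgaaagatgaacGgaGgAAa
Sox6 (chr7:115489715-115489762, minus strand): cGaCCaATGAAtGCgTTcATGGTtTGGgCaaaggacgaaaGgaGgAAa
Sox13 (chr1:133385518-133385565, minus strand): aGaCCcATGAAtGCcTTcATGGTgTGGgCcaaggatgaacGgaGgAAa
Sox8 (chr17:25570175-25570222, minus strand): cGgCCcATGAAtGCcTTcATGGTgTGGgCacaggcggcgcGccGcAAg
Sox9 (chr11:112782903-112782950, plus strand): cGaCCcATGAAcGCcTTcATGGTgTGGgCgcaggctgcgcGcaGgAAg
Over the 237 bases that code for the whole box, the 8 pairs within a group were between 81.4% and 89.5% identical, and the 37 pairs from different groups between 53.2% and 73.0%. The most alike were Sox4 and Sox11, whose transcripts shared an exact run of 48 bases. Sox2 and Sox21 shared a run of 38 bases, and no pair from different groups shared more than 29. No source used here gives the read length, and reads confined to these runs could have been assigned to either gene. Sox4, Sox5, Sox6, Sox8 and Sox21 also overlap annotated genes on the other strand, and whether the counting used strand is likewise not known here. On their own strand, Sox2 overlaps Sox2ot and Sox5 overlaps Gm44068 and Sox5it, and counting by strand would not separate reads from shared bases. All these are overlaps of gene spans from start to end, and overlap of exons was not examined.

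Sox21 was the most abundant of the 10 transcripts in the molar. Counting only these members, 1 gene supplied nearly all of the SoxB, SoxD and SoxE level each. Levels are given as FPKM, fragments scaled to transcript length and to the mapped total of the library, which can therefore be compared between genes. In order of the mean over 6 libraries, Sox21 stood at 54.1 FPKM, Sox4 at 31.0, Sox9 at 21.4, Sox12 at 17.3, Sox13 at 15.3, Sox11 at 2.05, Sox6 at 0.563, Sox5 at 0.315, Sox2 at 0.303 and Sox8 at 0.118 FPKM. Neighbours whose ranges over the 6 libraries overlapped were Sox9 and Sox12, Sox12 and Sox13, Sox5 and Sox2, and Sox2 and Sox8. Sox9 was nevertheless above Sox12, and Sox12 above Sox13, in 6 of 6 libraries. The place of Sox4 could depend on the length used. The table lists 2967 bases for it, while its transcript in the annotation has 4795. At that length and with the same reads its mean would be 19.2 FPKM, between Sox9 and Sox12. Reads from the added bases, if they had not been counted, would raise that value.

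**Figure D1:**
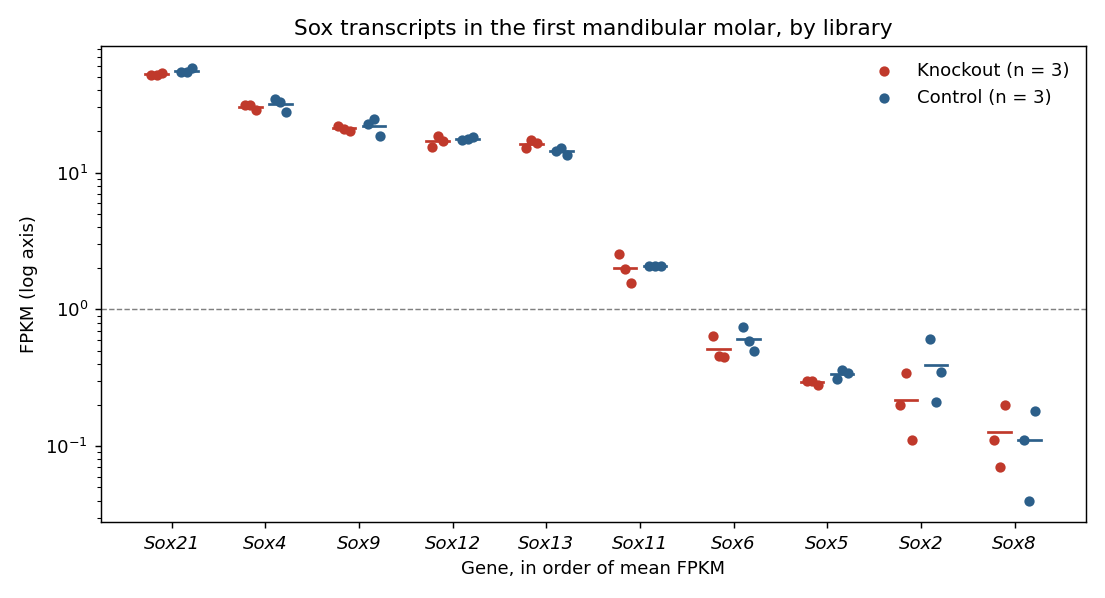
FPKM of the 10 Sox genes (log axis) in 3 knockout libraries (red, left of each pair) and 3 control libraries (blue, right), with a bar at each group mean and a dashed line at 1 FPKM. Sox21, Sox4, Sox9, Sox12 and Sox13 lie above 13 FPKM in every library, Sox11 near 2, and Sox6, Sox5, Sox2 and Sox8 below 1.

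None of the Sox genes passed the test between knockout and control molars. The test was limma-trend on log2(FPKM + 1), over 11934 genes that reached 1 FPKM in 3 or more libraries, with Benjamini-Hochberg adjustment over all of them and a threshold of 0.05. Sox21, Sox4, Sox9, Sox12, Sox13 and Sox11 entered it, and 0 of these 6 were called, where 0.00838% of all tested genes were, namely Wnt10a itself. Of the 6, 0 had an unadjusted p under 0.05, against 5.7% of all tested genes, although Sox13 had one by limma in 4 of 11 alternatives (no filter, median-ratio size factors, the replicate block, and without knockout 1). Log2 fold changes were below 0 for 5 of them and above 0 for 1, with a median of -0.05 beside -0.005 over all tested genes. The 95% intervals of the 6 lay between -0.29 and 0.34 on the log2(FPKM + 1) scale, so larger changes in either direction lie outside them. The targeted gene was at 19.39, 19.94 and 18.07 FPKM in the knockout libraries and at 33.61, 36.59 and 31.68 FPKM in the control libraries. Since each library comes from molar tissue with many cell types, fewer cells of a type and less RNA per cell cannot be told apart in any of these values.

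**Figure D2:**
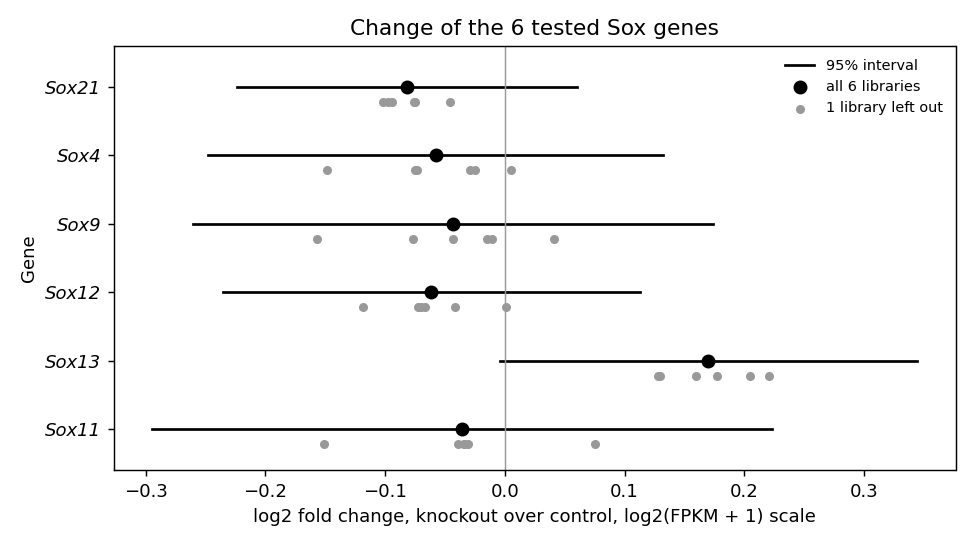
Log2 fold change of knockout over control on the log2(FPKM + 1) scale for the 6 Sox genes of the list that were tested, with its 95% interval (black), and the same value with each of the 6 libraries left out in turn (grey). All 6 intervals include 0, and Sox13 is the one of the 6 above 0 with all libraries.

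Among the SoxB genes, Sox21 was the more abundant, and it varied least of the 6 tested members. SOX21 is a transcriptional repressor of neural progenitors and epithelia, and in mice its loss also affects hair. The gene (Entrez 223227) is a single exon on the minus strand of chromosome 14, from 118233232 to 118237030 in mm10. Sox21 was at 52.11, 52.07 and 53.49 FPKM in knockout libraries 1, 2 and 3, against 54.11, 54.42 and 58.59 FPKM in control libraries 1, 2 and 3. Every knockout library was below every control library, and the distance between the closest pair was small against the spread of the controls. Of all tested genes, the groups did not overlap for 10.1%, with the knockout below for 5.35% and above for 4.8%. Group means were 52.6 ± 0.809 FPKM in knockout molars and 55.7 ± 2.50 FPKM in control molars (SD, n = 3 each), a difference of -5.65%. The log2 fold change, -0.08, had an SE of 0.065 and a 95% interval of -0.22 to 0.06, and its adjusted p by limma was 0.896. The separation of the groups did not survive another scaling. With FPKM divided by median-ratio size factors, Sox21 was at 51.99, 50.45 and 55.55 in the knockout libraries and at 52.08, 53.55 and 60.75 in the control libraries, which overlap. The residual SD of Sox21 was lower than that of all but 6.07% of tested genes, and between 3549 and 4071 reads per library stood behind it.

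Library 3 of each genotype stood out for Sox21 and, in the other direction, for Sox9 and Sox4. Knockout 3 and control 3 held the highest Sox21 of their group and the lowest Sox9 and Sox4. The summed level of 7 ameloblast markers, all above 0 in every library, was 239655, 206400 and 244888 FPKM in knockouts 1, 2 and 3, and 209487, 229421 and 244963 FPKM in controls 1, 2 and 3, so library 3 was the highest in both groups. Most of that sum is Amelx and Ambn, which with Mmp20, Klk4 and Amtn were highest in library 3 of both groups. Odam was highest in library 3 of the controls only. Enam was highest in knockout 2 and control 1, and lowest in knockout 3. The summed level of 8 dental epithelium markers, also all above 0, was 2821, 2967 and 2449 FPKM in the knockouts and 2828, 2865 and 2189 FPKM in the controls, lowest in library 3 of both. The median-ratio size factors were 0.963 in knockout 3 and 0.964 in control 3, and between 1.002 and 1.039 elsewhere. The part of these markers and of the scale in the Sox values was not tested. After division by the size factors, control 3 still held the lowest Sox9 and Sox4 of the controls, at 19.06 and 28.71, while knockout 3 no longer held the lowest of the knockouts.

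**Figure D3:**
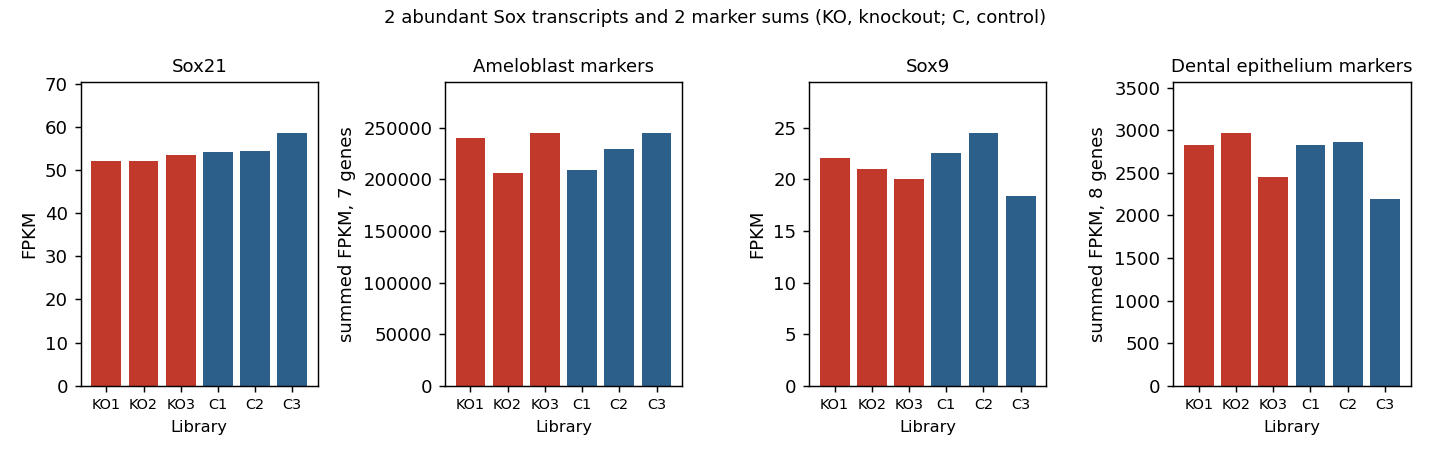
FPKM of Sox21 and Sox9 beside the summed FPKM of 7 ameloblast markers and 8 dental epithelium markers, by library (KO1 to KO3, knockout, red; C1 to C3, control, blue). In both groups library 3 is highest for Sox21 and the ameloblast sum and lowest for Sox9 and the epithelium sum.

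Sox2, the other SoxB gene, was close to the limit of detection. SOX2 maintains progenitor cells, among them those of the dental epithelium in the mouse incisor and molar. The gene (Entrez 20674) is a single exon of chromosome 3, plus strand, between 34650405 and 34652461. It lies inside the span of the long non-coding gene Sox2ot on the same strand. Whether Sox2ot transcripts cover that exon was not examined, and reads from any that do could not be told apart from Sox2. Sox2 was at 0.20, 0.34 and 0.11 FPKM in the knockout libraries and at 0.61, 0.21 and 0.35 FPKM in the control libraries. The groups overlapped, and control 1 stood above all other libraries. These values correspond to 9, 15 and 5 reads in the knockouts and 27, 9 and 16 reads in the controls, estimated from FPKM, length and depth. In the authors' deposited table Sox2 had a log2 ratio of -0.87 with a q-value of 0.0268. It did not pass the filter on low values, and without any filter its log2 fold change was -0.19 (SE 0.112) with a limma adjusted p of 0.897, on a scale that compresses values this low. The fit without a filter called 0 genes, so Wnt10a did not pass it either. The ratio of the knockout mean to the control mean was 0.556 with all libraries, 0.774 without control 1, and between 0.397 and 0.692 without any other single library.

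Control 1 also held the most oral mucosa transcripts, and Sox2 is a gene of oral epithelium as well. Summed over 6 markers, all above 0 in every library, oral mucosa transcripts were at 29.0, 33.0 and 20.1 FPKM in knockout libraries 1, 2 and 3, against 201.9, 30.1 and 21.5 FPKM in control libraries 1, 2 and 3. The order of Sox2 over the knockouts, highest in 2 and lowest in 3, was that of the marker sum, while in the controls library 3 was above library 2 for Sox2 and below it for the sum. The part of oral mucosa in the Sox2 values was not tested. Of 9 listed genes of dental epithelial stem cells and Sox2 partners, 6 were tested and 0 passed in either direction, with a median log2 fold change of 0.04. Igfbp5, which binds insulin-like growth factors, was at 279 ± 49.5 FPKM in knockout molars and 312 ± 8.24 FPKM in control molars (SD, n = 3 each). Gli1, a target and effector of Hedgehog signals, was at 87.2 ± 6.41 FPKM in knockout molars against 79.7 ± 9.91 FPKM in control molars.

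SoxC was the one group to which a pair of genes contributed much. Its proteins are activators of progenitor, mesenchymal and neuronal genes and act redundantly in mouse embryos. Of the summed SoxC level, Sox4 made up between 57.7% and 63.9% per library and Sox12 between 31.5% and 38.0%. The sum was 49.00, 51.35 and 47.51 FPKM in the knockout libraries and 54.00, 52.44 and 47.98 FPKM in the control libraries, which overlap.

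Sox4 (Entrez 20677, a single exon on the minus strand of chromosome 13, 28948919 to 28953713) was at 31.03, 30.96 and 28.89 FPKM in the knockout libraries and at 34.50, 32.87 and 27.69 FPKM in the control libraries. Control 3 held the lowest value of all 6 libraries and control 1 the highest, so the knockouts lay within the controls. The difference was -0.06 on the log2 scale (SE 0.086, adjusted p by limma 0.943).

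Sox12 (Entrez 20667, a single exon on the minus strand of chromosome 2, 152393611 to 152398063) was at 15.45, 18.41 and 17.05 FPKM in the knockout libraries and at 17.42, 17.49 and 18.23 FPKM in the control libraries. Here the controls lay within the knockouts, and knockout 1 alone was clearly below them. On the log2 scale the difference was -0.06 (SE 0.079, adjusted p by limma 0.932).

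Sox11 (Entrez 20666, a single exon on the minus strand of chromosome 12, 27334264 to 27342574) was far below the other two, at 2.52, 1.98 and 1.57 FPKM in the knockout libraries and at 2.08, 2.08 and 2.06 FPKM in the control libraries. The controls agreed within 0.0115 FPKM (SD) and the knockouts spread on both sides of them, with an SD of 0.476 FPKM. That pattern gave a difference of -0.04 on the log2 scale (SE 0.118, adjusted p by limma 0.976), and between 243 and 393 reads per library stood behind it.

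Genes that SoxC factors are known to switch on in neurons and progenitors gave no call. Of 6 listed, 5 were tested and 0 passed in either direction, with a median log2 fold change of 0.02. Marcksl1, a regulator of actin, was at 102.8 ± 10.04 FPKM in knockout molars and 100.9 ± 6.19 FPKM in control molars (SD, n = 3 each). Stmn1, a destabilizer of microtubules, was at 61.2 ± 9.79 FPKM in knockout molars against 57.9 ± 4.57 FPKM in control molars, and the neuronal tubulin Tubb3 at 49.1 ± 8.30 FPKM in knockout molars against 47.1 ± 3.07 FPKM in control molars.

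In SoxD, Sox13 carried between 93.2% and 95.8% of the summed level and was the only one of the 6 tested members with a log2 fold change above 0. SOX13 is known from lymphocytes, where it takes part in the choice of T cell lineage in mice, and it can bind TCF1. The gene (Entrez 20668) has 14 exons on the minus strand of chromosome 1, from 133382303 to 133424377. Sox13 was at 15.08, 17.24 and 16.51 FPKM in knockout libraries 1, 2 and 3, and at 14.49, 15.09 and 13.47 FPKM in control libraries 1, 2 and 3. The groups overlapped by a narrow margin, since knockout 1 was just below control 2. Group means were 16.3 ± 1.099 FPKM in knockout molars and 14.4 ± 0.819 FPKM in control molars (SD, n = 3 each), a difference of 13.4%. The log2 fold change, 0.17, had an SE of 0.079 and a 95% interval of -0.004 to 0.34, and by limma its p was 0.0550 unadjusted and 0.876 adjusted. With median-ratio size factors the groups no longer overlapped, at 15.05, 16.70 and 17.15 in the knockout libraries and 13.95, 14.85 and 13.97 in the control libraries, and the limma adjusted p was 0.602. Before that scaling, 4.8% of all tested genes had the knockout above without overlap, and the share after it was not computed. The fold change stayed above 0 in each of the 11 alternatives tried, where the limma adjusted p lay between 0.438 and 0.9999.

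Sox5 and Sox6, which act beside SOX9 in cartilage, were both under 1 FPKM in every library and were not tested. The authors' length is that of the longest transcript, of 3 listed for Sox5 and 6 for Sox6, so a shorter isoform in the molar would be understated. Sox5 (Entrez 20678, minus strand of chromosome 6, 143828425 to 144781977) was at 0.30, 0.30 and 0.28 FPKM in the knockout libraries and at 0.31, 0.36 and 0.34 FPKM in the control libraries. Its groups did not overlap, by a margin of 0.01 FPKM, the last decimal of the table, and they did overlap with median-ratio size factors. Sox6 (Entrez 20679, minus strand of chromosome 7, 115470872 to 116038796) was at 0.64, 0.46 and 0.45 FPKM in the knockout libraries and at 0.74, 0.59 and 0.50 FPKM in the control libraries, and its groups overlapped. Between 38 and 47 reads per library stood behind Sox5 and between 72 and 116 behind Sox6. Without a filter the log2 fold changes were -0.05 (SE 0.039) for Sox5 and -0.09 (SE 0.077) for Sox6, with limma adjusted p of 0.899 and 0.905 in a fit that called 0 genes. Over the 10 Sox genes the groups did not overlap for Sox21 and Sox5, with the knockout below, and over all rows of the table that held for 5.57%, or 9.31% in either direction.

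**Figure D4:**
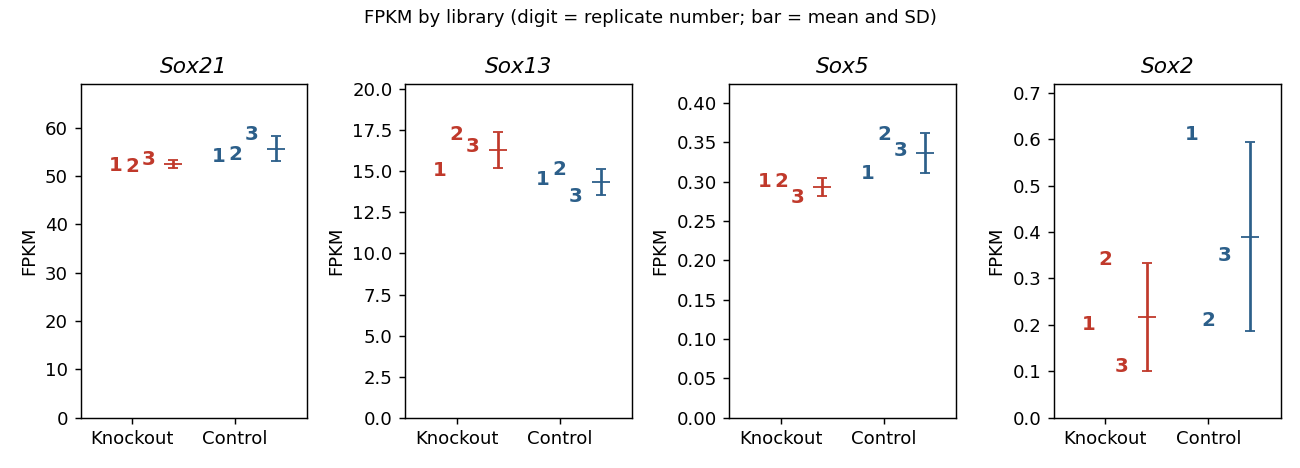
FPKM of Sox21, Sox13, Sox5 and Sox2 in each knockout library (red) and control library (blue); digits are replicate numbers, and the bar beside each group is its mean with SD (n = 3). The groups of Sox21 and Sox5 do not overlap, those of Sox13 overlap narrowly, and control 1 stands above the other libraries for Sox2.

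Of the summed level of Sox9 and Sox8, the SoxE genes among the 10, Sox9 made up between 99.0% and 99.8% per library. Sox10, a SoxE gene outside the 10, was not in that sum. Its level was 0.36, 0.46 and 0.38 FPKM in the knockout libraries and 0.19, 0.23 and 0.51 FPKM in the control libraries. SOX9 is the master regulator of cartilage and is also used by epithelial progenitors and neural crest cells. The gene (Entrez 20682) has 3 exons and lies on chromosome 11, plus strand, between 112782224 and 112787760. Sox9 was at 22.03, 20.99 and 20.04 FPKM in the knockout libraries and at 22.60, 24.50 and 18.38 FPKM in the control libraries. The knockouts lay within the range of the controls. A log2 fold change of -0.04, with an SE of 0.099 and a 95% interval of -0.26 to 0.17, came with an adjusted p by limma of 0.964.

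Sox8, which can stand in for SOX9 in mouse testis and neural crest, was the lowest of the 10. The gene (Entrez 20681) has 3 exons on the minus strand of chromosome 17, from 25565892 to 25570686, and overlaps 1 gene on the other strand. Sox8 was at 0.11, 0.07 and 0.20 FPKM in the knockout libraries and at 0.11, 0.04 and 0.18 FPKM in the control libraries, or between 2 and 11 reads. Its groups overlapped. The ratio of the knockout mean to the control mean was 1.15 with all libraries, 1.69 without control 3, 0.818 without knockout 3 and 0.874 without control 2. The lowest values were in knockout 2 and control 2 and the highest in library 3 of both groups. The summed level of 7 skeletal muscle markers, 3 of them below 1 FPKM in every library, was 7.61, 7.79 and 48.5 FPKM in knockouts 1, 2 and 3, and 44.2, 3.48 and 32.9 FPKM in controls 1, 2 and 3. Muscle was thus high in control 1 as well, where Sox8 was not, and its part in the Sox8 values was not tested.

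**Figure D5:**
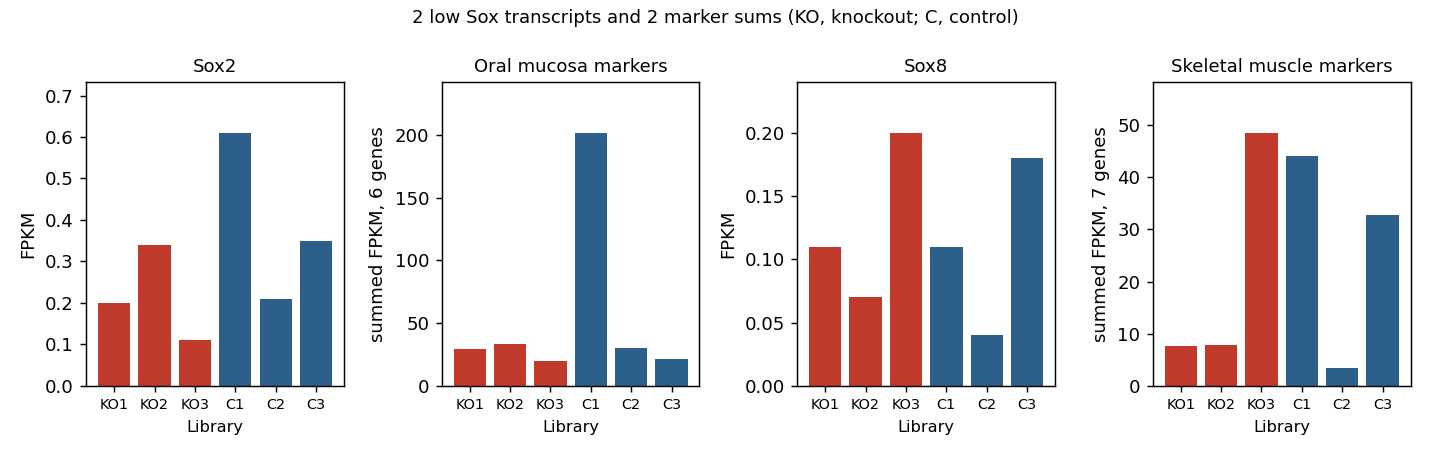
FPKM of Sox2 and Sox8 beside the summed FPKM of 6 oral mucosa markers and 7 skeletal muscle markers, by library (KO1 to KO3, knockout, red; C1 to C3, control, blue). Control 1 is highest for Sox2 and the oral mucosa sum, and control 2 is lowest for Sox8 and the muscle sum.

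The cartilage genes that SOX9, SOX5 and SOX6 drive in chondrocytes gave no call either. Of 15 listed, 13 had a row, 6 were tested and 0 passed, with log2 fold changes below 0 for 6 of 6 and a median of -0.25, where 51.8% of all tested genes were below 0 and their median was -0.005. Col11a2, a chain of type XI collagen, was at 139 ± 39.2 FPKM in knockout molars and 167 ± 16.5 FPKM in control molars (SD, n = 3 each). Col9a3, a chain of type IX collagen, was at 43.8 ± 8.52 FPKM in knockout molars against 47.5 ± 3.68 FPKM in control molars, and Col11a1 at 41.3 ± 7.09 FPKM in knockout molars against 49.4 ± 6.04 FPKM in control molars. Of the 6 tested, 2 had an unadjusted p under 0.05 by limma, against 5.7% of all tested genes. They were Hapln1, which links aggrecan to hyaluronan, and Col2a1, the main collagen of cartilage, both named after their values were seen. Their limma adjusted p was 0.858 and 0.869, and Col2a1 was at 1.58, 1.33 and 2.58 FPKM in the knockout libraries and 2.30, 2.47 and 3.24 FPKM in the control libraries. Of the 6 chondrocyte markers, 4 were below 1 FPKM in every library. The sum of all 6 was between 5.74 and 6.79 FPKM in the knockout and between 7.24 and 9.17 FPKM in the control. These ranges do not overlap, and of all tested genes 5.35% had the knockout below without overlap. Most of the sum is Hapln1 and Col2a1, so it repeats the values of those 2 genes. The defining markers Acan and Matn1 were at or near 0, at most 0.16 and 0.00 FPKM in the knockout and at most 0.20 and 0.03 FPKM in the control. Other markers of mineralized tissue had medians below 0 as well, with 0 called: -0.19 for 4 odontoblast markers, 4 of them below 0, and -0.18 for 6 osteoblast and bone markers, 4 of them below 0. By limma, 3 of the 6 osteoblast and bone markers and 0 of the 4 odontoblast markers had an unadjusted p under 0.05. Such values were thus not particular to the cartilage list. The odontoblast sum was 715, 787 and 972 FPKM in knockout libraries 1, 2 and 3 against 895, 836 and 972 FPKM in control libraries 1, 2 and 3, beside Col11a2 at 100.46, 137.81 and 178.88 FPKM in those knockout libraries and 165.98, 150.55 and 183.58 FPKM in those control libraries. Both were lowest in knockout 1 and highest in library 3 of each group. Most of the odontoblast sum is Dspp, which with Phex and Nes followed that order. Dmp1 was instead lowest in library 3 of each group, at 18.25 FPKM in knockout 3 and 21.62 FPKM in control 3. The part of chondrocytes, odontoblasts and bone cells in the values of the cartilage list or of Sox9, Sox5 and Sox6 was not tested.

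The factors through which beta-catenin acts, some of which Sox proteins bind or compete with, also gave no call. All 6 listed genes were tested and 0 passed in either direction, with a median log2 fold change of -0.04. Ctnnb1, beta-catenin itself, was at 379 ± 28.0 FPKM in knockout molars and 358 ± 16.5 FPKM in control molars (SD, n = 3 each). Tcf7l1, often a repressor of Wnt targets, was at 19.4 ± 0.724 FPKM in knockout molars against 19.9 ± 1.23 FPKM in control molars, and Tcf7, which encodes TCF1, at 17.2 ± 0.191 FPKM in knockout molars against 18.9 ± 1.24 FPKM in control molars.

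Beyond the 10 members, the Sox genes that reached the filter were the SoxF genes, which act in endothelium. Of 10 listed, 9 had a row, 3 were tested and 0 passed in either direction, with log2 fold changes between -0.02 and 0.13. Sox18 was at 10.5 ± 0.571 FPKM in knockout molars and 9.55 ± 0.304 FPKM in control molars (SD, n = 3 each), Sox17 at 2.28 ± 0.129 FPKM in knockout molars against 2.34 ± 0.334 FPKM in control molars, and Sox7 at 2.42 ± 0.162 FPKM in knockout molars against 2.14 ± 0.335 FPKM in control molars. Summed over 8 endothelial markers, which include these 3 genes, the level was between 67.3 and 76.8 FPKM in the knockout and between 67.0 and 70.0 FPKM in the control.

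The submitters' own comparison called some of the members. At a q-value under 0.05, the authors' deposited table called 3 of the 10 Sox genes, where it called 24.4% of the 16662 genes with a q-value. By direction, it called 14.1% of genes lower and 10.2% higher. Those 3 were Sox13, with a log2 ratio of 0.18 and a q-value of 1.36e-05 in the authors' deposited table, Sox21, with -0.08 and 0.000126, and Sox2, with -0.87 and 0.0268. No source used here names the authors' test. With limma, which uses the spread between the 3 libraries of a group, Sox13 and Sox21 did not pass. Sox2 was under the filter, and it did not pass the fit without a filter, which called 0 genes.

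The genes whose levels moved most like a Sox gene over the 6 libraries were sought for Sox2, Sox11 and Sox9, the members with the largest range on the log2(FPKM + 1) scale. Likeness was the root mean square distance between centred log2(FPKM + 1) values, over 7789 genes at 5 FPKM or more in every library. Nearest to Sox2, whose range was 0.54, were Ppp1r12a (distance 0.074), Zfp825 (0.083) and Dmkn (0.084). Each was highest in control 1, as Sox2 was. Ppp1r12a was at 10.45 FPKM in control 1 and between 7.71 and 8.95 FPKM in the other libraries. Zfp825 was at 12.27 FPKM there and otherwise between 9.63 and 10.27 FPKM. Dmkn, a gene of stratified epithelium, was at 24.52 FPKM in control 1 and between 16.60 and 18.84 FPKM in the other libraries. The Sox2 values matched here rest on between 5 and 27 estimated reads per library. Nearest to Sox11 were Bphl (0.037), Tbc1d19 (0.037) and Kctd14 (0.042), all highest in knockout 1 and lowest in knockout 3, as Sox11 was. Closest to Sox9 were Dusp7 (0.020), Pitx1 (0.033) and Tmem129 (0.033), each highest in control 2 and lowest in control 3. How close a match chance alone gives among 7789 genes was not tested.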

How the data were processed

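Libraries of first mandibular molars were sequenced on the BGISEQ-500, per the labels' protocols, and the alignment used Bowtie2 and mm10 according to the submitters' processing notes. Per the file headers, the authors' deposited table gives FPKM per library, the longest transcript length, and the authors' log2 ratio, p-value and q-value for case against control. No source used here gives the aligner's version, the counting tool or the authors' test. Symbols of 25 genes that appeared as dates were restored from gene numbers.

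Depth, here the mapped total to which FPKM was scaled, was estimated from steps between low FPKM values (transcript length less 30 bases). It lay between 17950000 and 18530000 reads per library, at which between 83.9% and 89.6% of low values came to within 0.15 of whole reads (30% by chance). Read numbers are such estimates and cover counting error only.

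The test was limma-trend (limma 3.58.1, R 4.3.3) on log2(FPKM + 1), with no covariate, over genes that reached 1 FPKM in 3 or more libraries, with Benjamini-Hochberg adjustment over 11934 genes, tested on simulated data. This scale understates changes of low genes. Members and lists were chosen with earlier results of these data known. All 10 members are named, and of each list the genes past the threshold or otherwise up to 3 most abundant; 1 gene of these lists is not reported here. Of the marker lists, sums are given. Alternatives were a pseudocount of 0.1, no filter, a filter at 5 FPKM, median-ratio scaling, replicate number as a block, and each library left out in turn. Tables were handled in Python 3.11.15 with pandas 2.3.3 and numpy 2.4.6, sequences were read with biopython 1.88, and figures drawn with matplotlib 3.10.9.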

Additional observations from a re-analysis of the deposited data

How the results depend on the processing

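No Sox gene passed the threshold under any of the 11 alternatives. The 4 genes under the filter entered only the fit without a filter, which called 0 genes. Among 65 values of the 6 tested members the lowest limma adjusted p was 0.438, that of Sox13 without knockout 3. The sign of 61 of them was that of the fit on all libraries. It turned for Sox12 without knockout 1 (0.000607), Sox11 without knockout 3 (0.0757), Sox4 without control 1 (0.00484) and Sox9 without control 2 (0.0412), and the cause was not tested. Over the omissions of 1 library the log2 fold change lay between -0.12 and 0.0006 for Sox12, -0.15 and 0.08 for Sox11, -0.15 and 0.005 for Sox4, -0.16 and 0.04 for Sox9, 0.13 and 0.22 for Sox13, and -0.10 and -0.05 for Sox21. Sox11 had no value with the filter at 5 FPKM. The count of all genes called was 1, but 0 without a filter, 3 with a filter at 5 FPKM, 8 with the replicate block, and between 1 and 6 with 1 library left out (6 without knockout 3, 3 without control 2). Same-numbered knockout and control libraries deviated from their group means with correlations of -0.06, 0.17 and 0.39 across genes for numbers 1, 2 and 3, so the numbers were not taken as pairs, and knockout 1 and knockout 2 correlated best with another number. With the block, 0 Sox genes passed and Sox13 had a limma adjusted p of 0.475. Leaving out single libraries for the 4 genes under the filter was added after the data were seen. Estimated reads of 2 to 27 per library limit what can be said of Sox2 and Sox8.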
